A study of Mus musculus with 22 samples.

Results

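Muscle stem cells taken 3 days after a cardiotoxin injury were compared with muscle stem cells of uninjured muscle, both labelled ZT16. The comparison rests on 7 of the 22 RNA libraries of the study, chosen by their sample titles: the 4 day 3 libraries of ZT16 (replicates 1 to 4) and the 3 uninjured libraries of ZT16 (replicates 1 to 3). All mice carried the Pax7-zsgreen reporter, in which a green fluorescent protein marks cells that use the Pax7 gene, and the cells came from hindlimb muscle. Cardiotoxin is a snake toxin that kills myofibers and is used to start regeneration. Zeitgeber time (ZT) counts hours from lights on, which puts ZT16 in the night of a usual light cycle and ZT4 in the day. The study also sampled day 1 after injury (4 libraries at ZT16 and 4 at ZT4) and the uninjured and day 3 states at ZT4 (3 and 4 libraries), and some of these enter below as comparators.

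Several features limit these groups as a model. At day 3 the zeitgeber time is given for the injury, and the hour of collection is not stated. For uninjured muscle the labels give the time without saying what it marks. The labels do not state the age or sex of the mice, or whether the replicates are separate animals, so every p-value measures only the spread between these libraries. The mice were perfused with a mild fixative before the cells were isolated, and RNA was extracted with a kit made for fixed tissue. The cells were selected by a Pax7 reporter, while Pax7 RNA itself was among the genes that fell.

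In uninjured muscle, stem cells rest in a reversible quiescent state that depends on Notch signalling and on adhesion to the myofiber and its basement membrane. After injury they enter the cell cycle, switch on the transcription factor MyoD, and divide as myoblasts. Myoblasts then leave the cycle, express myogenin, and fuse with each other and with damaged fibers to rebuild muscle.

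Library totals for the 7 libraries were 6424310 to 9751536 estimated counts, and 17165 to 20294 genes had at least 1 count. Within a group, log2 CPM of library pairs correlated at 0.954 to 0.967 in uninjured muscle and at 0.974 to 0.982 at day 3 (Pearson's r across genes). The lowest uninjured value was that of replicates 1 and 2, and replicate 3 correlated at 0.9665 with replicate 1 and at 0.9669 with replicate 2. CPM is the count scaled to the size of its library, with TMM factors between libraries. In immediate early and stress genes, uninjured replicates 1 and 3 stood apart from replicate 2. The mean log2 CPM of 22 such genes was 9.69, 5.84 and 9.45 in replicates 1, 2 and 3, and 5.47 to 6.72 in the day 3 libraries. List counts of this comparison that changed with these libraries, and gene values that changed clearly, are therefore also given without both of them. That leaves replicate 2 as the lone uninjured library, assumed to vary like the other groups (called below the fit with replicate 2 alone). Of 9 muscle stem cell markers, all had counts in both groups, with a summed level of 4141 to 5280 CPM in uninjured muscle and 3036 to 3493 CPM at day 3. Of these markers 6 fell and 3 rose (Myod1, Itga7 and Cdh15), with a median log2 change of −2.37 (2 higher and 6 lower with replicate 2 alone). Markers of other cell types are described near the end.

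Day 3 cells differed from uninjured cells in most of the genes tested. Of 15084 genes, 5100 were higher at day 3 (33.8%) and 5269 were lower (34.9%), which is 68.7% in either direction, at an adjusted p under 0.05 in edgeR's quasi-likelihood test. A change of at least 2-fold was called for 3336 genes that were higher and 3689 that were lower (22.1% and 24.5%), and one of at least 4-fold for 1636 and 1895. The CPM ranges of the groups did not overlap for 5029 genes with all day 3 libraries above (33.3%) and for 5095 with all of them below (33.8%). The median log2 change over all genes tested was −0.04. Without uninjured replicates 1 and 3, 4521 genes were higher (27.3%) and 3993 lower (24.1%) of 16581 tested, or 51.3% in either direction. Of the 10369 genes called with all libraries, 8083 were also called then, and 8077 of these had the same sign. The counts of each gene list below are to be read against these shares.

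**Figure D1:**
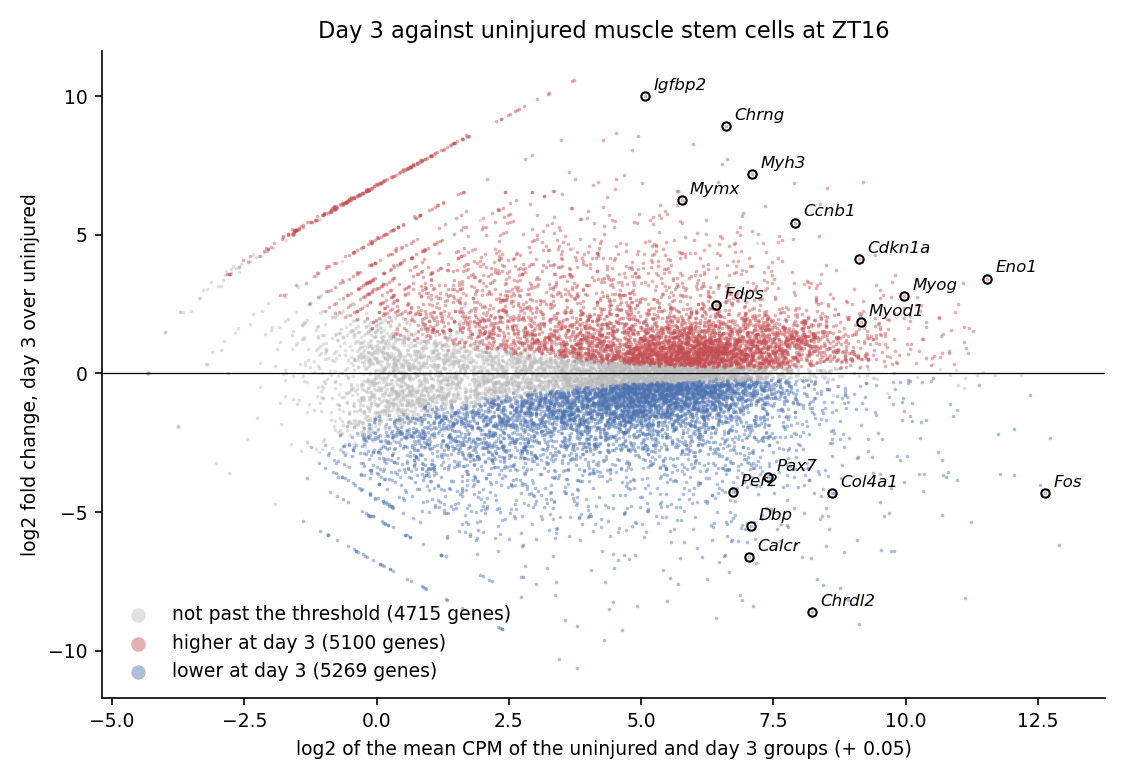
Log2 fold change of day 3 over uninjured at ZT16 (vertical axis) against the log2 of the mean CPM of the groups (horizontal axis, log2 with 0.05 CPM added), 1 point per gene tested. Red points are the 5100 genes called higher and blue points the 5269 called lower. Named genes are circled, with Igfbp2 (log2 10.02) the highest and Chrdl2 (log2 −8.62) the lowest of those labelled.

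The genes furthest from their uninjured level were absent or nearly absent in one of the groups. Those named in this paragraph and the next were chosen among genes whose CPM ranges did not overlap. Their call also had to hold without uninjured replicates 1 and 3. Igfbp2, which encodes a binding protein for insulin-like growth factors (ENSMUSG00000039323, chromosome 1, 72824503 to 72852474 on GRCm38), read 0, 0.143 and 0 CPM in the 3 uninjured libraries and 61.6, 59.2, 73.6 and 75.6 CPM in the 4 day 3 libraries. Its log2 change was 10.02 ± 0.50 (SE, edgeR adjusted p = 1.96e-14), or 11.97 without uninjured replicate 2, which held its only uninjured count, and 8.79 with replicate 2 alone. R3hdml had no count in uninjured cells and 15.6, 14.5, 40.0 and 33.3 CPM at day 3, at least 181-fold higher when the uninjured group is set to 3 counts in all. The same bound was 131-fold for the receptor gene Gpr176, 114-fold for the secreted protein gene Cthrc1, 96.5-fold for the formin Fmn1 and 80.0-fold for Mbnl3, a splicing factor of the muscleblind family. All of these had 0 counts in each uninjured library, and their day 3 ranges therefore did not overlap with them.

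In the other direction, Spock3, a matrix proteoglycan gene, read 26.1, 36 and 20.4 CPM in uninjured cells and 0 in all day 3 libraries, at least 285-fold lower at day 3. Tac4, a tachykinin precursor gene, read 28.8, 8.86 and 27.7 CPM in uninjured cells and was likewise at 0 at day 3, at least 226-fold lower. Its fitted log2 change was −10.31 with all libraries and −8.93 with replicate 2 alone. Hmcn2, which encodes the matrix protein hemicentin (ENSMUSG00000055632, chromosome 2, 31314415 to 31460738), read 943, 900.0 and 1049 CPM in uninjured cells and 2.98, 3.9, 3.84 and 2.41 CPM at day 3 (log2 −8.19 ± 0.30). Nppc, the precursor gene of C-type natriuretic peptide, read 1452, 281 and 1602 CPM before injury and 2.87, 3.54, 0.64 and 0.604 CPM at day 3 (log2 −9.06 ± 0.97, −6.99 with replicate 2 alone). Its lowest uninjured level was thus in replicate 2, and no uninjured library overlapped with day 3, which the choice of genes required. The paired entries Fam205a2 and Fam205a4 had identical values in every library and were both at 0 at day 3. They are near-identical copies whose reads cannot be assigned, so their separate values are uncertain.

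Genes of quiescence and of the Notch pathway were lower at day 3. Of 21 genes on the list, 19 fell and 2 rose, with a median log2 change of −3.01 (19 fell and 1 rose with replicate 2 alone). Pax7, the transcription factor that defines these cells (ENSMUSG00000028736, chromosome 4, 139737062 to 139833528), read 303, 348 and 290.4 CPM in uninjured libraries and 22.1, 22.1, 20.8 and 29.1 CPM at day 3 (log2 −3.74 ± 0.16, adjusted p = 1.47e-15). No uninjured value came near the day 3 range. Calcr, the calcitonin receptor, read 312, 223 and 247 CPM and then 1.85, 4.14, 2.72 and 1.81 CPM (log2 −6.62 ± 0.38). Calcitonin receptor signalling helps to hold these cells in quiescence. Chrdl2, a BMP antagonist of the chordin family, read 536, 425 and 838 CPM and then 2.16, 0.827, 0.64 and 2.26 CPM (log2 −8.62 ± 0.37). The surface protein gene Cd34 (−4.17 ± 0.16) and the transcription factor gene Foxo1 (−4.10 ± 0.18) also fell on the log2 scale.

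Within the Notch pathway the targets fell and a ligand rose. The target gene Heyl read 1103, 819 and 1586 CPM in uninjured cells and 154, 101, 159.6 and 157 CPM at day 3 (log2 −3.03 ± 0.29, −2.44 with replicate 2 alone), and the targets Hey1 (−2.83) and Hes1 (−2.27) fell too. Among receptors, Notch3 fell by 3.05, Notch2 by 1.85 and Notch1 by 0.72 on the log2 scale. Dll1, a ligand, read 66.1, 25 and 46.6 CPM in uninjured cells and 101, 101, 119 and 99.3 CPM at day 3 (log2 1.20 ± 0.29, 2.15 with replicate 2 alone), so that each day 3 library lay above each uninjured one. Against day 1 at ZT16, Dll1 was higher at day 3 (log2 1.73 ± 0.27), and Heyl was not distinguished from day 1 (log2 0.07 ± 0.27, adjusted p = 0.854).

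The myogenic regulators went both ways, with a median log2 change of 0.12 over the list. Over all genes tested, 33.8% were higher and 34.9% lower. Of 15 transcription factors of the lineage, 7 rose and 5 fell (9 and 3 with replicate 2 alone). Myf5, an early determination factor, read 764, 744 and 454 CPM in uninjured cells and 73.3, 68.2, 45.4 and 45.7 CPM at day 3 (log2 −3.49 ± 0.25). Myod1 read 235, 201 and 301 CPM and then 812, 905, 956 and 888 CPM (log2 1.86 ± 0.13, adjusted p = 6.34e-12). At day 1 Myod1 stood at 1309, 1228, 1366 and 1420.4 CPM, above every day 3 library (day 3 minus day 1, log2 −0.58 ± 0.11, adjusted p = 2.35e-04).

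Myog, the gene of myogenin, which drives differentiation (ENSMUSG00000026459, chromosome 1, 134289989 to 134292548), took another course. It read 372, 219.5 and 172 CPM in uninjured cells, 12.1, 26.1, 9.9 and 7.75 CPM at day 1 and 1628, 1117, 2223 and 2047 CPM at day 3. The day 3 libraries lay above all others (log2 2.78 ± 0.51 over uninjured, adjusted p = 1.23e-04, and 6.96 ± 0.56 over day 1). Mef2a, a partner of the myogenic factors, rose by 2.46 ± 0.18 and Hes6, which promotes myogenesis, by 1.87 ± 0.21 (2.57 with replicate 2 alone) on the log2 scale.

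Differentiation and fusion genes were higher at day 3 as a group: of 25 tested, 18 rose and 5 fell, with a median log2 change of 3.02 (17 and 4 with replicate 2 alone). Myoblast fusion needs the membrane proteins myomaker and myomixer. Mymk, the gene of myomaker (ENSMUSG00000009214, chromosome 2, 27061636 to 27072179), read 45.7, 25.9 and 23.7 CPM in uninjured cells and 258, 207, 487 and 384 CPM at day 3 (log2 3.39 ± 0.41, adjusted p = 9.05e-07). Mymx, the gene of myomixer (ENSMUSG00000079471, chromosome 17, 45600971 to 45602102), read 1.29, 1.71 and 1.14 CPM and then 84.9, 67.2, 159.8 and 117 CPM (log2 6.26 ± 0.47). At day 1 both were below the uninjured mean, at 0.744 ± 0.711 and 0.311 ± 0.143 CPM (SD, n = 4). In both genes, day 3 replicates 3 and 4 were higher and replicate 2 lowest.

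Structural genes of new myotubes moved with them. Myh3, the embryonic myosin heavy chain, read 4.44, 0.286 and 0.852 CPM in uninjured cells and 269, 136, 403 and 284 CPM at day 3 (log2 7.18 ± 0.66, 8.91 without uninjured replicate 1, which was the highest of its group, and 9.89 with replicate 2 alone). Tnnt2, a troponin of embryonic muscle, read 12.6, 3 and 3.12 CPM and then 195, 136, 290.4 and 250.3 CPM (log2 5.12 ± 0.44, 6.19 without uninjured replicate 1 and 6.25 with replicate 2 alone). In both genes the day 3 libraries lay far above the uninjured ones, and replicate 2 was again the lowest of the 4. Cdh2, the adhesion protein N-cadherin, read 18.2, 11.6 and 8.94 CPM and then 214, 185, 232 and 231 CPM (log2 4.06 ± 0.21). Ckm, the creatine kinase of mature fibers, read 166, 220.4 and 254 CPM and then 43.4, 20.4, 62.9 and 46.5 CPM, and was lower (log2 −2.31 ± 0.48).

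The subunits of the muscle acetylcholine receptor, the channel that receives the motor nerve's signal, did not move together. Chrng, the embryonic gamma subunit (ENSMUSG00000026253, chromosome 1, 87204657 to 87212694), read 0.287, 0.714 and 0.142 CPM in uninjured cells and 147, 134, 258 and 234 CPM at day 3 (log2 8.92 ± 0.49, 9.83 without uninjured replicate 2 and 8.12 with replicate 2 alone). Chrnd, the delta subunit, read 8.02, 3.43 and 2.13 CPM and then 231, 195, 265 and 245 CPM (log2 5.69 ± 0.51, 6.44 without uninjured replicate 1). Chrna1, the alpha subunit, read 148, 184 and 148 CPM and then 1145, 1203, 1472 and 1373 CPM (log2 3.02 ± 0.15). Chrnb1, the beta subunit, fell from 449, 543 and 519.6 CPM to 183, 184, 190.2 and 191 CPM (log2 −1.43 ± 0.09). The first 3 rose with ranges far from the uninjured ones, and the beta subunit fell. Compared per length as TPM (mean ± SD, n = 3 and 4), Chrnb1 had the highest mean of the 4 subunits in uninjured cells (477 ± 57.6 TPM), followed by Chrna1 (54.8 ± 8.07 TPM), Chrnd (2.61 ± 1.28 TPM) and Chrng (0.213 ± 0.167 TPM). At day 3 the order of the mean TPM was Chrna1 (380.2 ± 47), Chrnb1 (146 ± 6.68), Chrng (122 ± 38.2) and Chrnd (109 ± 17.5), and the last 3 lay closer to each other than to Chrna1.

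The promoters of Chrng and Chrna1 are shown because both genes rose and both hold the E-box CAGCTG, a form bound by myogenic factors. Sequences are from RefSeq on GRCm38.p6, read 5′ to 3′ on the gene's strand, and cover the 250 bases before the gene start, less any base that the annotation places in an exon. Capitals mark CAGCTG, whose reverse complement is itself. The Chrng stretch is chr1:87205561-87205809 on the plus strand, with matches 155 and 132 bases before the start. The start used for Chrng is that of RefSeq, and the stretch lies inside the longer span that the GENCODE annotation gives the gene, in no exon of it. The Chrna1 stretch is chr2:73580339-73580588 on the minus strand, with matches 92 and 44 bases before the start.
Chrng: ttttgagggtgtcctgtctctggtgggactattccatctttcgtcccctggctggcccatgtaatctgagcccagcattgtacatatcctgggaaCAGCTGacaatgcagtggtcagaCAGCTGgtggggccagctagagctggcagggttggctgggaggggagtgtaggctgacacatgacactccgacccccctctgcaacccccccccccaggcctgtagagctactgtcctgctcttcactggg
Chrna1: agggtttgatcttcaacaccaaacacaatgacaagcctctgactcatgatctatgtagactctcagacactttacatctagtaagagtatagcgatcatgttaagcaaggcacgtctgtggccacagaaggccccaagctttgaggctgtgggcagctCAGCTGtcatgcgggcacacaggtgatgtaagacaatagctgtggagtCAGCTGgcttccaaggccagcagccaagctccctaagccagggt
Of the 26 listed differentiation and fusion genes, 20 had a promoter in the table, and 8 of these (40%) held CAGCTG on either strand, against 12.8% of all 27025 promoters of the same length. A match is a description of the letters and does not show that a factor binds there.

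**Figure D2:**
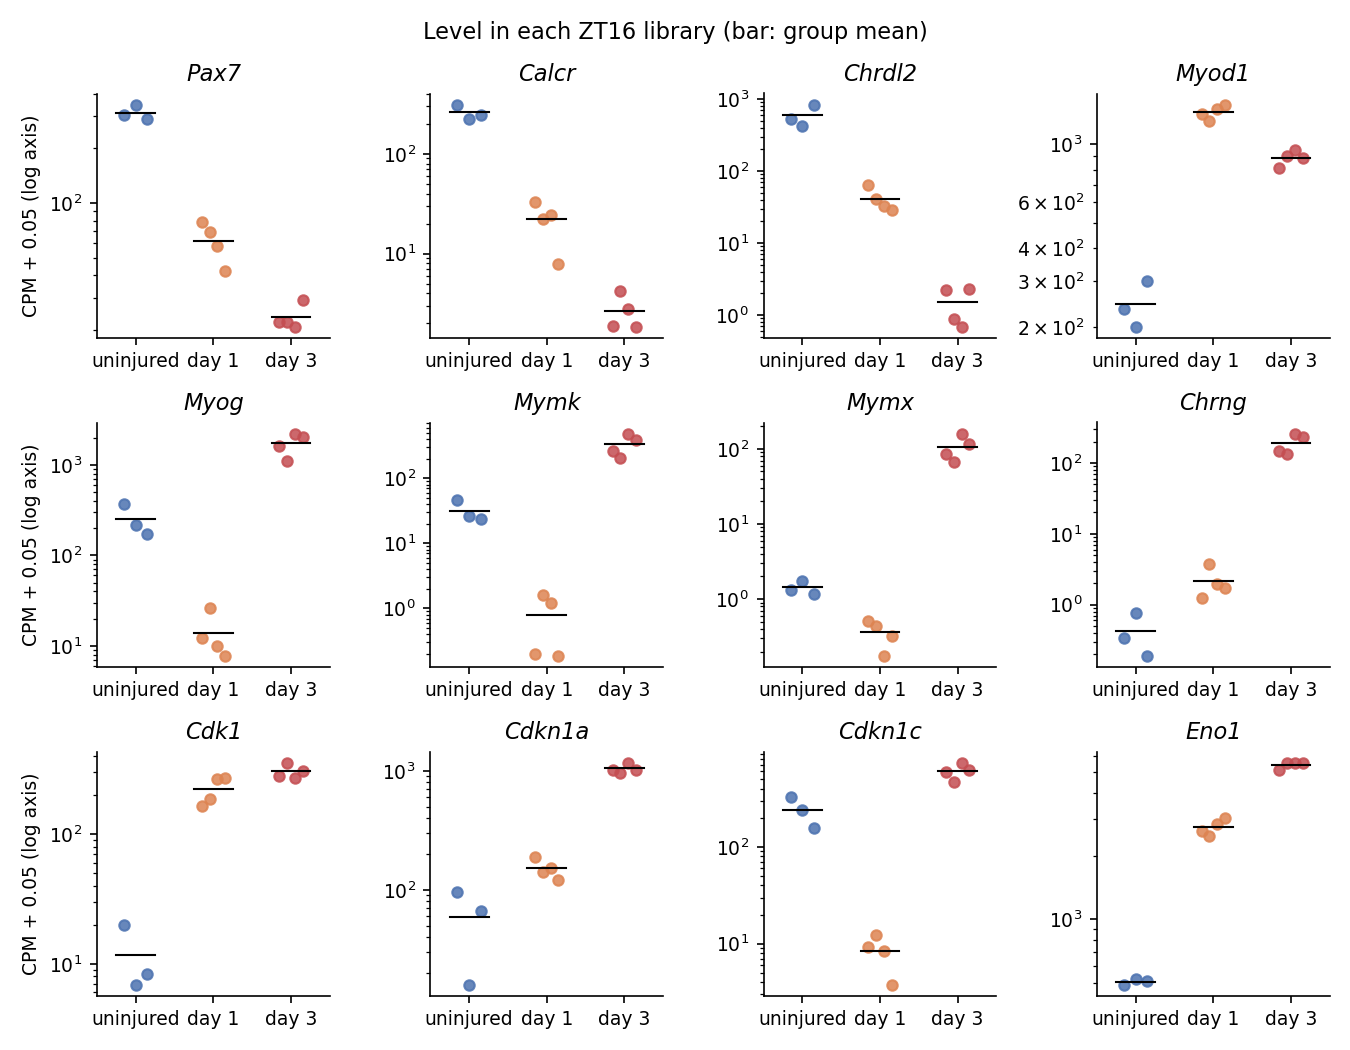
CPM of 12 genes in each ZT16 library (vertical axis, log scale with 0.05 CPM added) for uninjured, day 1 and day 3 cells, with 1 point per library and a bar at the group mean. Pax7, Calcr and Chrdl2 are lower at each step from uninjured to day 1 to day 3, while Myog, Mymk, Mymx and Cdkn1c are lowest at day 1.

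Mitosis and DNA replication genes were higher in day 3 cells. All 27 mitosis genes rose, with a median log2 change of 4.16, and all 27 DNA replication genes rose, with a median of 2.56 (27 and 26 with replicate 2 alone). Cdk1, the kinase that drives entry into mitosis (ENSMUSG00000019942, chromosome 10, 69335146 to 69352938), read 19.8, 6.86 and 8.23 CPM in uninjured libraries and 281, 358, 273 and 310.1 CPM at day 3 (log2 4.72 ± 0.35, 5.39 without uninjured replicate 1 and 5.55 with replicate 2 alone). Its partner Ccnb1, cyclin B1, read 20.5, 4 and 7.95 CPM and then 469, 478, 459 and 481 CPM (log2 5.45 ± 0.59, 6.35 without uninjured replicate 1 and 6.95 with replicate 2 alone). The kinetochore motor gene Cenpe (4.76 ± 0.26) and the mitotic kinase gene Plk1 (5.81 ± 0.40, 6.60 with replicate 2 alone) rose on the log2 scale as well. In uninjured cells the mitosis genes were not silent: replicate 1 had the highest mean log2 CPM of the list (3.76, 2.58 and 2.94 in replicates 1, 2 and 3).

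Among replication genes, Mcm3, a subunit of the replicative helicase, read 53.2, 40.3 and 49.8 CPM in uninjured cells and 314, 350.1, 296 and 329 CPM at day 3 (log2 2.75 ± 0.16). Rrm2, the regulated subunit of ribonucleotide reductase, read 94, 50.4 and 56.6 CPM and then 1295, 1365, 1229 and 1293 CPM (log2 4.27 ± 0.35). Cdc6, a licensing factor, rose by 4.51 ± 0.45 on the log2 scale. The stages of the cycle differed in their course after day 1. Between day 1 and day 3 at ZT16, where 18.9% of all genes were higher and 20.5% lower at day 3, 17 of the 27 replication genes were lower and the other 10 did not pass, while 15 of the 27 mitosis genes were higher and the other 12 did not pass. Mcm3 stood at 569.9 ± 59.2 CPM at day 1 and 322 ± 22.8 CPM at day 3 (log2 −0.82 ± 0.13), and Ccnb1 at 110.3 ± 28.2 and 471 ± 9.94 CPM (log2 2.09 ± 0.43).

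Cyclins, kinases and E2F factors of G1 and S phase mostly rose (14 of 20, with 4 lower, and 13 higher and 3 lower with replicate 2 alone). Ccne1, cyclin E1, read 8.31, 3.57 and 6.1 CPM in uninjured cells and 177, 177, 176 and 184 CPM at day 3 (log2 4.89 ± 0.28, 5.72 with replicate 2 alone). E2f8, a repressor of E2F targets, read 2.01, 1.29 and 1.14 CPM and then 105, 95.9, 102 and 98.8 CPM (log2 6.07 ± 0.29). These day 3 values lay far above the uninjured range. Inhibitors of cyclin-dependent kinases went both ways. Cdkn1a, the gene of p21 (ENSMUSG00000023067, chromosome 17, 29090976 to 29100727), read 96.1, 16 and 66.3 CPM before injury, 189.6, 143, 154 and 121 CPM at day 1 and 1025, 967, 1173 and 1025 CPM at day 3 (log2 4.14 ± 0.45 over uninjured, 6.11 with replicate 2 alone). Its level was thus above uninjured at day 1 and highest at day 3, without overlap. Cdkn1c, the gene of p57, read 330.0, 239 and 155 CPM before injury, 9.1, 12.2, 8.38 and 3.74 CPM at day 1 and 587, 463, 741 and 626 CPM at day 3. Its rise over uninjured cells (log2 1.32 ± 0.46, adjusted p = 0.0172) missed the threshold without uninjured replicates 1 and 3 (log2 1.42, adjusted p = 0.112) and without uninjured replicate 3 alone (log2 1.13, adjusted p = 0.0712). Cdkn1b, the gene of p27, fell by 2.77 on the log2 scale.

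A pair of cell cycle promoters is shown because the mitosis and replication genes rose together. Their sequences come from the same RefSeq table and build. The Cdk1 stretch is chr10:69352939-69353162 on the minus strand, with CCAAT boxes and TTTGAA (the CHR element of cell cycle genes) in capitals on either strand (4 matches, 208 to 48 bases before the start). The last bases before the start lie in an annotated exon and are left out. Mcm5, another helicase subunit (log2 3.26 ± 0.23), is chr8:75109259-75109508 on the plus strand, with overlapping E2F motifs in capitals, 153 and 149 bases before the start.
Cdk1: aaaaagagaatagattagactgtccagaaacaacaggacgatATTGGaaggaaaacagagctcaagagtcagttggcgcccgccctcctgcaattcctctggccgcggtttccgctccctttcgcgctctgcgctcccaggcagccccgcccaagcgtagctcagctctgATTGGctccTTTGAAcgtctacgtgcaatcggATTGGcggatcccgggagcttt
Mcm5: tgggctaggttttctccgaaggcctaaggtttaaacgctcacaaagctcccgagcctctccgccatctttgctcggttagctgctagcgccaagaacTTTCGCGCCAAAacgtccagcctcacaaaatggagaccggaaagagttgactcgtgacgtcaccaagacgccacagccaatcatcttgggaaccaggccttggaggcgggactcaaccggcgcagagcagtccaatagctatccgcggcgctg
CCAAT stood in 17 of 23 mitosis promoters (73.9%), against 34.5% of all promoters, and TTTGAA in 6 of 23 (26.1%), against 16.3%. An E2F motif (TTTGGCGC, TTTCGCGC, TTTCCCGC or TTCCCGCC, either strand, which can overlap) stood in 9 of 22 replication promoters (40.9%), against 2.98% of all. CACGTG, the E-box bound by Myc and by the clock factors, stood in 1 of 17 ribosome biogenesis promoters (5.88%), against 6.05%.

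All 31 oxidative phosphorylation genes rose, with a median log2 change of 1.37 (30 with replicate 2 alone). Cycs, cytochrome c, rose from a mean of 138 ± 25.9 to 818 ± 104 CPM (SD, n = 3 and 4), and Uqcrq, a subunit of complex III, from 70.4, 76.4 and 75.4 CPM to 332, 384, 342 and 316 CPM (log2 2.21 ± 0.10). Of 16 glycolysis genes, 13 rose and 2 fell (14 higher and 0 lower with replicate 2 alone). Eno1, the enolase of most tissues (ENSMUSG00000063524, chromosome 4, 150236721 to 150248879), read 489.7, 521 and 508 CPM in uninjured cells and 5120.2, 5572, 5559 and 5522 CPM at day 3 (log2 3.43 ± 0.10, adjusted p = 6.31e-18). Eno3, the muscle enolase, read 66.5, 82.1 and 99.8 CPM before injury, 78.5 ± 10.4 CPM at day 1 and 1689, 1768, 1921 and 1959 CPM at day 3 (log2 4.47 ± 0.22). Both enolases rose without overlap, and the day 1 mean of Eno3 lay within its uninjured range. The genes that fell were the muscle phosphofructokinase Pfkm (−0.79) and the hexokinase Hk1 (−0.47), while Hk2 rose (1.58). Neither fall was called with replicate 2 alone (Pfkm −0.61, adjusted p = 0.0883, and Hk1 −0.23, adjusted p = 0.348), and that of Hk1 was not called without uninjured replicate 3 (log2 −0.28, adjusted p = 0.126).

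Of 20 genes of serine, one-carbon and nucleotide synthesis, 19 rose and 1 did not pass (17 higher and 0 lower with replicate 2 alone). Phgdh, the first enzyme of serine synthesis (ENSMUSG00000053398, chromosome 3, 98313170 to 98339990), read 48.3, 32.4 and 53.1 CPM in uninjured cells and 611, 751, 704 and 647 CPM at day 3 (log2 3.93 ± 0.18). Mthfd2, a mitochondrial folate enzyme, read 8.6, 5.57 and 7.24 CPM and then 204, 249, 224 and 232 CPM (log2 4.99 ± 0.31). Of 21 ribosome biogenesis genes, 19 rose and 1 fell (18 higher and 0 lower with replicate 2 alone). The nucleolar genes Ncl (1.90 ± 0.10) and Npm1 (2.37 ± 0.13) rose on the log2 scale. The member that fell was Myc, an activator of the others, which read 668, 244 and 634 CPM in uninjured cells and 182, 203, 155 and 116 CPM at day 3 (log2 −1.65 ± 0.25). Without uninjured replicates 1 and 3 its change was −0.50 (adjusted p = 0.0741). Between day 1 and day 3, 17 of the 21 ribosome biogenesis genes were lower at day 3 and 4 did not pass, while 30 of the 31 oxidative phosphorylation genes were higher and 1 did not pass.

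**Figure D3:**
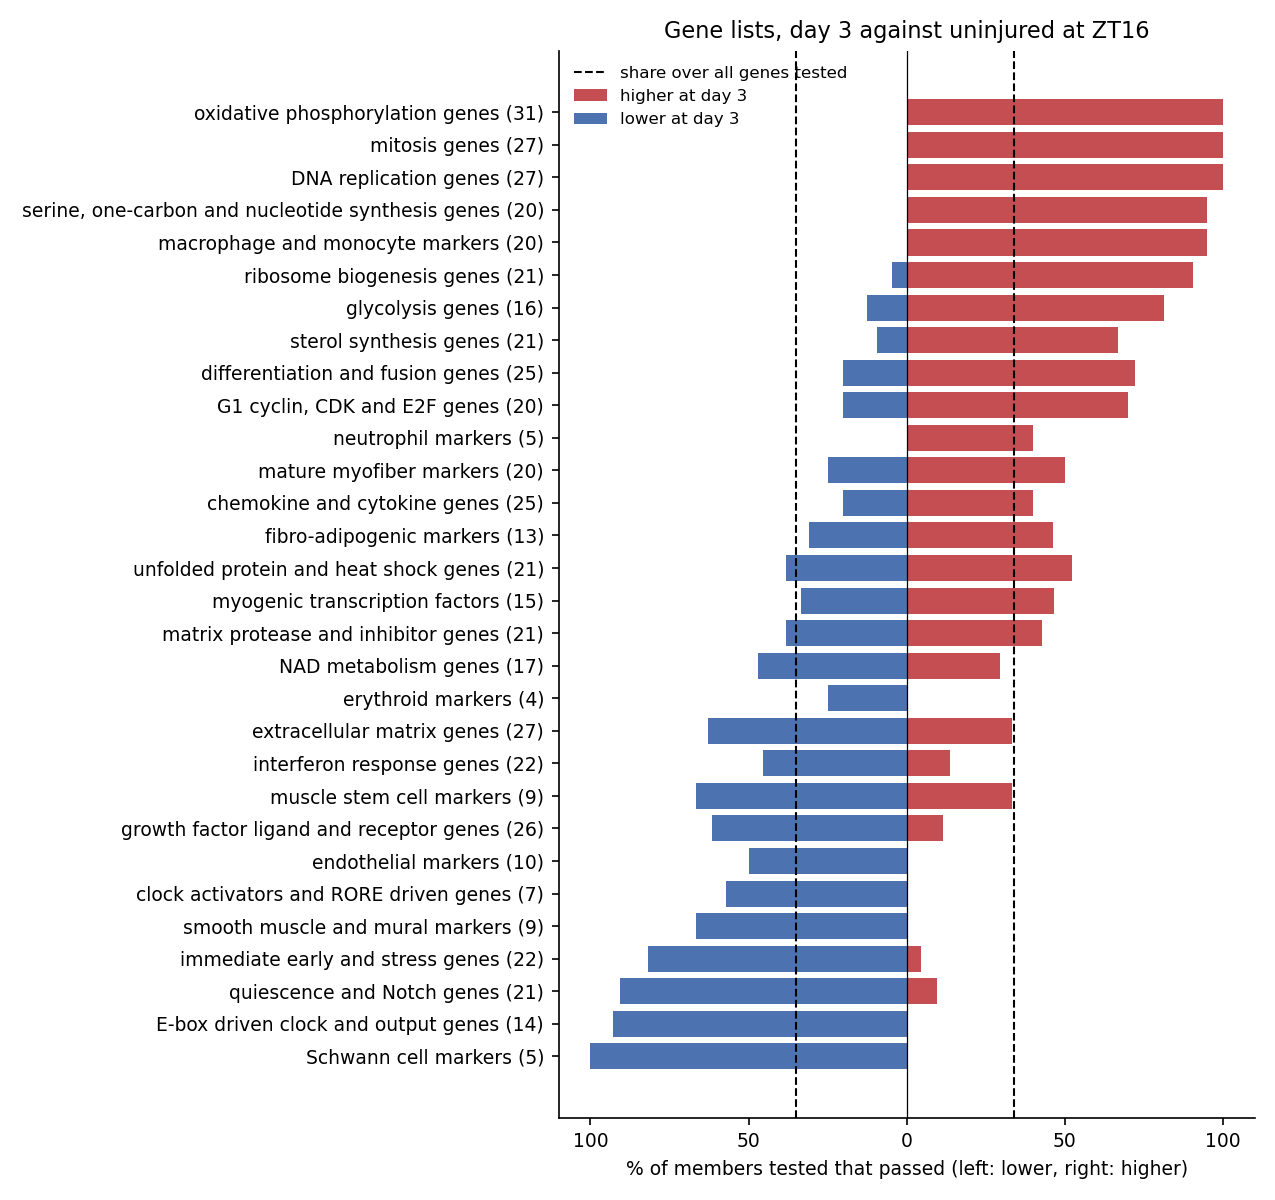
Share of tested members past the threshold in each gene list with at least 4 members tested (red bars to the right, higher at day 3, and blue bars to the left, lower), with the number of members tested in brackets. Dashed lines mark the shares over all genes tested, 33.8% higher and 34.9% lower. The mitosis, replication and oxidative phosphorylation lists reach 100% on the right, and the Schwann cell markers reach it on the left.

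Collagen IV, nidogen and several laminin genes of the basement membrane fell, and the type I collagen genes rose. Of 27 extracellular matrix genes, 17 fell and 9 rose, with a median log2 change of −0.90 (12 fell and 9 rose with replicate 2 alone). Col4a1, a chain of the collagen of basement membranes, read 755, 593 and 882 CPM in uninjured cells and 41.5, 27.1, 34.7 and 46 CPM at day 3 (log2 −4.32 ± 0.20). Lama2, the laminin chain of the muscle basement membrane, read 222, 157 and 204 CPM and then 28.2, 20.3, 27.8 and 30.2 CPM (log2 −2.87 ± 0.17). Nid1, a nidogen (log2 −1.30 ± 0.21), and Col3a1, a chain of the fibrillar collagen III (log2 −1.32 ± 0.18), fell as well. Col1a2, a chain of type I collagen, read 117, 19.9 and 18.3 CPM and then 596, 518, 721 and 663 CPM (log2 3.60 ± 0.59, 5.08 without uninjured replicate 1 and 5.05 with replicate 2 alone). Col1a1 read 167, 17.3 and 18.9 CPM and then 403, 304, 389 and 344 CPM (log2 2.41 ± 0.65, 4.36 without uninjured replicate 1, the highest of its group, and 4.46 with replicate 2 alone). Fitted on only the libraries compared, Col1a1 did not pass (log2 2.42, adjusted p = 0.0685). At day 1 these chains stood lower, at 9.81 ± 3.33 CPM for Col1a1 and 16.6 ± 5.86 CPM for Col1a2. Postn, the matricellular protein periostin, read 13.2, 0.857 and 1.28 CPM in uninjured and 48.4, 48.6, 56.3 and 37.7 CPM in day 3 libraries (log2 3.22 ± 0.67, 5.51 without uninjured replicate 1 and 5.85 with replicate 2 alone). These genes are also used by fibroblast-like cells, and of 13 fibro-adipogenic markers tested 6 rose and 4 fell. The part of such cells in the matrix values was not tested.

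Proteases that act on the matrix, and their inhibitors, went both ways: 9 of 21 rose and 8 fell (10 higher and 7 lower with replicate 2 alone), with a median of 0.26, also when Mmp9 is set at its bound. Timp1, an inhibitor, read 4.01, 0.428 and 0.568 CPM in uninjured cells and 79.6, 100.1, 79 and 68.7 CPM at day 3 (log2 5.61 ± 0.41, 7.36 without uninjured replicate 1 and 7.60 with replicate 2 alone). Adam19, a membrane protease, rose by 4.05 ± 0.28 on the log2 scale (4.77 without uninjured replicate 1 and 4.87 with replicate 2 alone). Mmp9, a gelatinase also known from neutrophils and macrophages, had no count in uninjured cells and 6.16, 7.09, 5.44 and 7.39 CPM at day 3, at least 45.7-fold higher. Adamts5, which cleaves proteoglycans, fell from 144, 136 and 136 CPM to 10.5, 10.6, 10.7 and 8.45 CPM (log2 −3.78 ± 0.26).

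Receptors and ligands of growth factors were mostly lower (16 of 26 fell and 3 rose, and 3 higher and 11 lower with replicate 2 alone). Fgfr1, a receptor for fibroblast growth factors, read 978, 886 and 1064 CPM in uninjured cells and 115, 111, 131 and 129 CPM at day 3 (log2 −3.01 ± 0.14). Tgfb3 read 282, 273 and 262 CPM and then 42.1, 29.3, 49.3 and 38.9 CPM (log2 −2.77 ± 0.21), and Igf1, a growth factor of muscle, 181, 109 and 125 CPM and then 16.3, 12.8, 8.16 and 10.4 CPM (log2 −3.52 ± 0.31). The members that rose were Igfbp2, Igfbp3 (2.42) and Met (1.58, 2.25 with replicate 2 alone), the receptor for hepatocyte growth factor.

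Genes of cholesterol synthesis rose at ZT16 by an amount that differed from the change at ZT4. At ZT16, 14 of 21 genes rose and 2 fell (15 higher and 1 lower with replicate 2 alone), with a median log2 change of 1.29. At ZT4, where 33.5% of all genes were higher and 33.5% lower at day 3, 2 rose and 8 fell. The difference between the injury effects, day 3 minus uninjured at ZT16 less the same at ZT4, was positive past the threshold for 17 of the 21 and did not pass for 4 (12 positive with uninjured ZT16 replicate 2 alone). Over all genes tested, that difference was positive for 6.8% and negative for 5.97%, or 12.8% in either direction. Fdps, an enzyme that makes farnesyl diphosphate (ENSMUSG00000059743, chromosome 3, 89093588 to 89101959), read 28.8, 22.9 and 26.8 CPM in uninjured cells and 128, 139, 157 and 152 CPM at day 3 of ZT16 (log2 2.46 ± 0.23). At ZT4 it stood at 148 ± 59.1 and 143 ± 15.3 CPM (SD, n = 3 and 4), a log2 change of −0.05, and the difference was 2.51 ± 0.30 (adjusted p = 3.43e-05).

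The sterol gene sums differed more between the uninjured groups than between the day 3 groups. The summed level of the 21 genes was 714 to 749 CPM in uninjured ZT16 libraries and 1435 to 2335 CPM in uninjured ZT4 libraries, and at day 3 it was 1438 to 1573 CPM at ZT16 and 1370 to 1788 CPM at ZT4. Sqle, the squalene epoxidase, read 24.2, 14 and 30.5 CPM and then 139, 120.4, 104 and 113 CPM at ZT16 (log2 2.38 ± 0.29, 3.17 with replicate 2 alone, difference 2.40 ± 0.38). Srebf2, the transcription factor of the pathway, read 121, 114 and 143 CPM and then 298, 285, 314 and 335 CPM (log2 1.29 ± 0.11, difference 1.28 ± 0.16). Insig1, a brake on the pathway, fell at ZT16 (log2 −0.74 ± 0.21), but not past the threshold without uninjured replicate 1 (log2 −0.47, adjusted p = 0.0706) or with replicate 2 alone (log2 −0.28, adjusted p = 0.432). Against day 1 at ZT16, 18 of the 21 were lower at day 3 and 3 did not pass.

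Clock genes driven through E-boxes were lower at day 3. Of 14 such genes, 13 fell and 1 did not pass, with a median log2 change of −3.50 (12 fell with replicate 2 alone). In these genes the clock's activators drive its own repressors and outputs. Per2, a repressor (ENSMUSG00000055866, chromosome 1, 91415982 to 91459324), read 209.8, 155 and 241 CPM in uninjured cells and 16.1, 9.22, 8.8 and 6.34 CPM at day 3 (log2 −4.29 ± 0.43, adjusted p = 7.13e-08). Dbp, an output transcription factor, read 276, 315 and 199 CPM and then 6.16, 4.84, 5.28 and 6.94 CPM (log2 −5.50 ± 0.25), and Tef, its relative, 433, 448 and 445 CPM and then 41.2, 37.2, 44.8 and 40.0 CPM (log2 −3.44 ± 0.15). The summed level of the 14 genes was 2509 to 3564 CPM in uninjured and 219 to 335 CPM in day 3 libraries.

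At ZT4, 11 of these 14 genes fell and 1 rose, and the effect was more negative at ZT16 past the threshold for 11 (4 with uninjured ZT16 replicate 2 alone). Per2 differed by −2.76 ± 0.61 (adjusted p = 0.106 with uninjured replicate 2 alone) and Tef by −1.30 ± 0.20 (0.00952), while for Dbp the difference was −0.11 ± 0.35 (adjusted p = 0.889). The uninjured sum at ZT4 was 1039 to 1722 CPM and the day 3 sum 304 to 344 CPM. Arntl, which encodes the activator BMAL1, read 6.59, 5.28 and 13.8 CPM in uninjured and 15.2, 8.27, 14.1 and 13.7 CPM in day 3 libraries at ZT16, and its ranges overlapped (log2 0.58 ± 0.32, adjusted p = 0.108). The threshold was passed without uninjured replicate 3 (log2 1.15), without day 3 replicate 2 (log2 0.75), with replicate 2 alone (log2 1.35, adjusted p = 0.018) and with no low-count filter (log2 0.72). Of the 7 clock activators and genes driven through ROR elements, 4 fell and 3 did not pass (1 higher and 3 lower with replicate 2 alone). Among those that fell was the receptor gene Rora (log2 −4.14 ± 0.27).

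**Figure D4:**
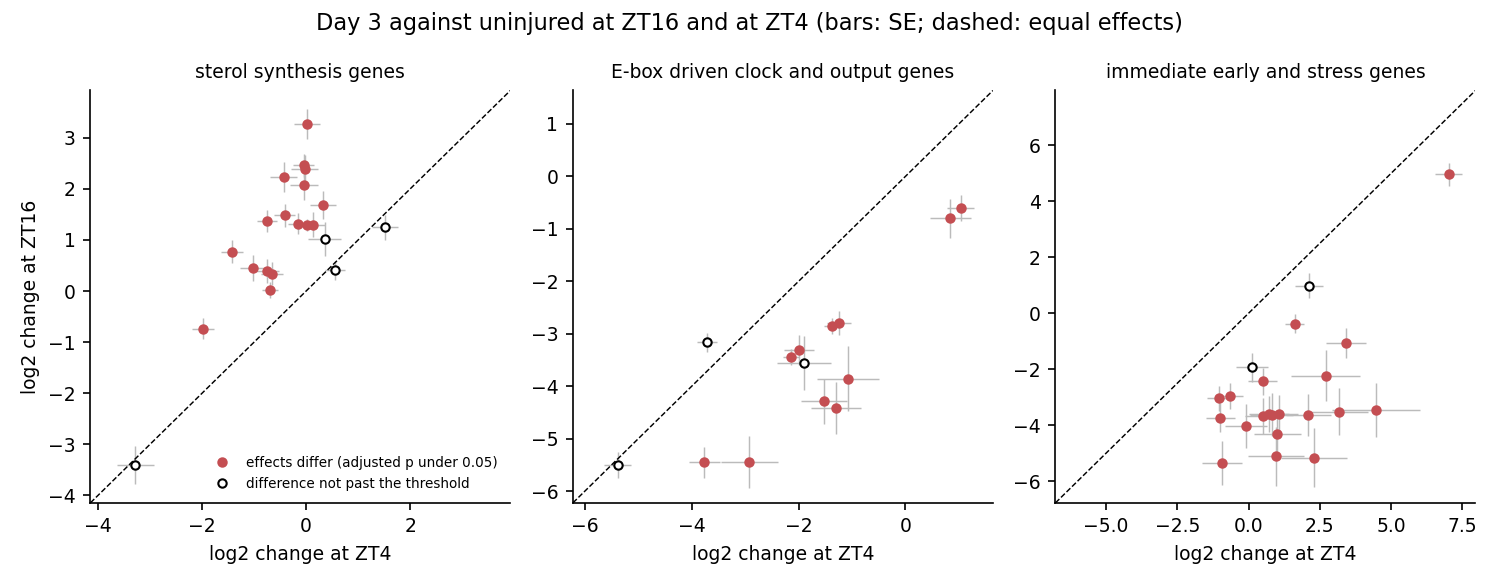
Log2 change from uninjured to day 3 at ZT16 (vertical axis) against the same change at ZT4 (horizontal axis) for the sterol synthesis, E-box driven clock and immediate early lists, 1 point per gene with SE bars and a dashed line of equal change. Red points differ between the times past the threshold: 17 sterol genes lie above the line, and 11 clock genes and 20 immediate early genes lie below it.

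The immediate early genes, which cells switch on within minutes of a stimulus or of handling, gave different results with different uninjured libraries. With all libraries 18 of 22 fell and 1 rose (median log2 −3.56). Without uninjured replicates 1 and 3, 2 fell and 4 rose (median 0.39). Fos read 19968, 469.6 and 16117 CPM in uninjured and 910.1, 749, 533 and 272 CPM in day 3 libraries, and uninjured replicate 2 lay within the day 3 range (log2 −4.31 ± 0.87, −3.70 without uninjured replicate 1 and 0.47 with replicate 2 alone, adjusted p = 0.658). Dusp1, a phosphatase of the same response, read 4426, 763 and 4566 CPM and then 342, 298, 215 and 126 CPM and was lower in both fits (log2 −3.73 ± 0.53 and −1.56). Fosl1 was the member that rose, from 11.9, 1.71 and 3.26 CPM to 198, 226, 139 and 138 CPM (log2 4.96 ± 0.41, 6.18 without uninjured replicate 1 and 6.74 with replicate 2 alone). The injury effect differed between ZT16 and ZT4 for 20 of the 22 genes, each more negative at ZT16 (14 in limma voom). With uninjured ZT16 replicate 2 alone the count was 0 in edgeR, with 1 gene at an unadjusted p under 0.05.

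**Figure D5:**
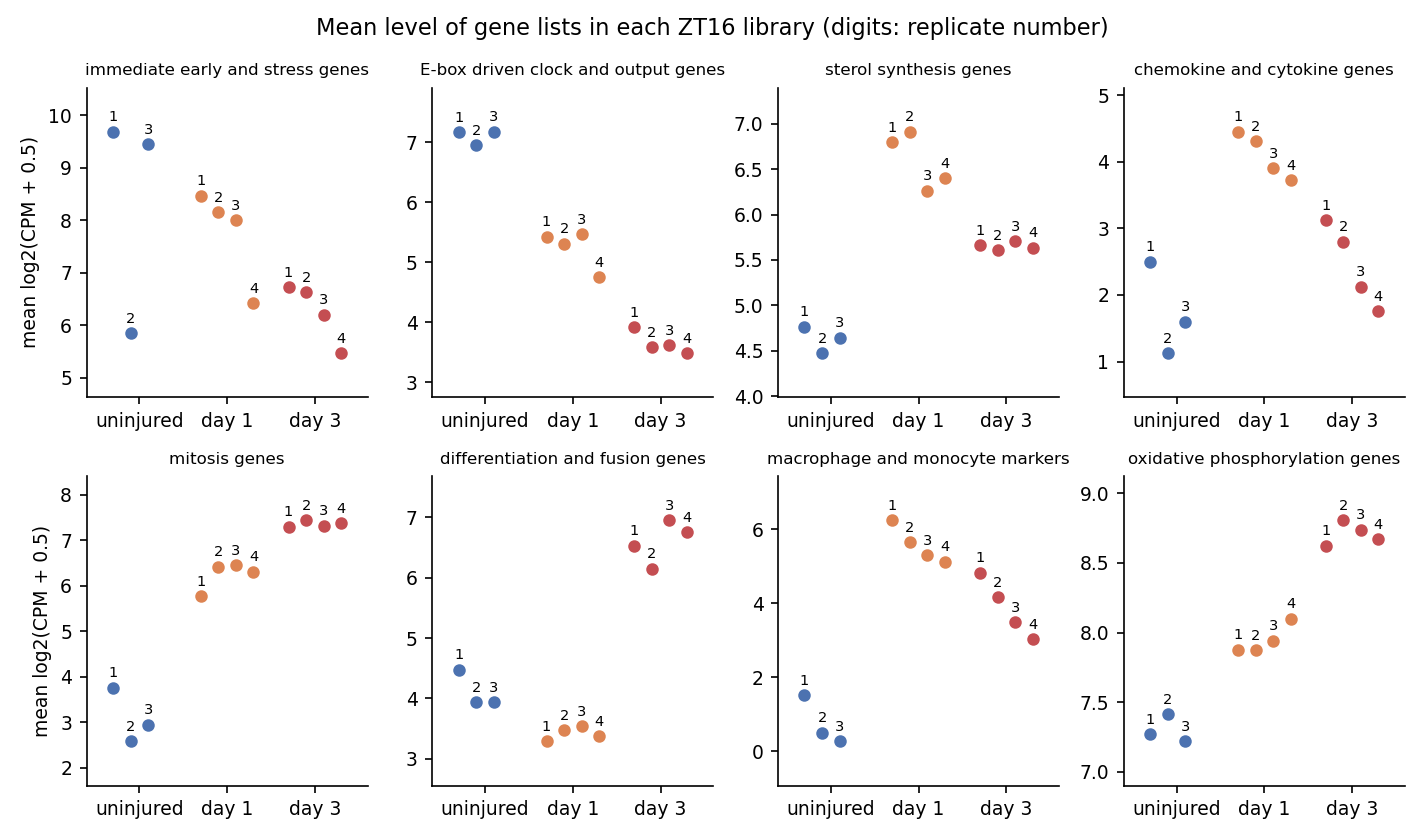
Mean of log2 (CPM + 0.5) over the members of 8 gene lists in each ZT16 library (vertical axis) for uninjured, day 1 and day 3 cells, with the replicate number above each point. Uninjured replicate 2 sits below replicates 1 and 3 for immediate early genes, and day 3 replicates 1 and 2 sit above replicates 3 and 4 for macrophage markers and for chemokines.

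Of 21 genes of protein folding and of the heat shock and unfolded protein responses, 11 rose and 8 fell (13 and 5 with replicate 2 alone). The inducible heat shock pair Hspa1a and Hspa1b fell. Hspd1, a mitochondrial chaperonin, read 319.8, 252 and 387 CPM in uninjured cells and 1423, 1570.1, 1365 and 1391 CPM at day 3 (log2 2.17 ± 0.12), and Pdia6, an enzyme that folds secreted proteins, 179, 188 and 219.6 CPM and then 719, 746, 784 and 806 CPM (log2 1.97 ± 0.12). Calr, a calcium-binding chaperone, rose by 1.87 ± 0.12 on the log2 scale. Herpud1 fell by 2.51 and Dnajb9 by 2.10 on the log2 scale. Hspa1a, whose near-identical copy Hspa1b makes its assignment uncertain, read 1640.3, 419 and 3554 CPM and then 73.6, 163, 159 and 100.2 CPM (log2 −3.91 ± 0.77, −3.01 without uninjured replicate 3). With replicate 2 alone neither was called (Hspa1a −1.68, adjusted p = 0.119, and Hspa1b −1.72, adjusted p = 0.103). Of 17 genes of NAD metabolism, 5 rose and 8 fell (3 higher and 7 lower with replicate 2 alone), and Nampt, the enzyme that recycles nicotinamide, rose from 33.7, 37.9 and 34.2 CPM to 58.9, 55.2, 43.2 and 52.4 CPM (log2 0.57 ± 0.14, adjusted p = 9.91e-04).

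Chemokine and cytokine genes were higher in 10 of 25 cases and lower in 5 (12 and 4 with replicate 2 alone), with a median of 1.28, also when Ccl8 is set at its bound. Csf1, a growth factor for macrophages, read 36, 34.4 and 24.4 CPM in uninjured cells and 142, 158, 125 and 143 CPM at day 3 (log2 2.17 ± 0.17). Il33, an alarmin, read 2.01, 0.143 and 0.71 CPM and then 46.4, 41.9, 40.9 and 48 CPM (log2 5.52 ± 0.61, 6.69 without uninjured replicate 1 and 8.18 with replicate 2 alone). Cx3cl1, a chemokine with a membrane-bound form, fell from 47, 56.6 and 36.5 CPM to 6.06, 7.92, 7.52 and 6.34 CPM (log2 −2.75 ± 0.22). Against day 1, 15 of the 25 were lower at day 3 and 2 higher, and Csf1 had stood at 405 ± 68.7 CPM at day 1.

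Ccl2, which attracts monocytes, varied between libraries of each group. It read 22.1, 3.57 and 7.95 CPM in uninjured cells, 316, 269, 172 and 202 CPM at day 1 and 39.4, 23.4, 13.1 and 5.73 CPM at day 3. The day 3 and uninjured ranges overlapped, and the change missed the threshold (log2 0.90 ± 0.55, adjusted p = 0.152). It passed without uninjured replicate 1 (log2 1.91), without day 3 replicate 4 (log2 1.20), with replicate 2 alone (log2 2.63, adjusted p = 0.0243) and with no low-count filter (log2 1.05). In the 4 day 3 libraries Ccl2 was highest in replicate 1 and lowest in replicate 4, and the summed level of 20 macrophage and monocyte markers was 1231, 863, 483 and 341 CPM in the same order of replicates. The part of such cells in these chemokine values was not tested. Of 22 interferon response genes, 10 fell and 3 rose (2 higher and 9 lower with replicate 2 alone). Irf9 fell by 2.23 on the log2 scale, while Rsad2, an antiviral enzyme, read 1.86, 2 and 2.41 CPM and then 22, 22.8, 23 and 26 CPM (log2 3.47 ± 0.43).

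Markers of other cell types were present and differed between the groups. In bulk samples, fewer cells of a type and less RNA per cell cannot be told apart. All 20 macrophage and monocyte markers were tested, 19 rose and 1 did not pass (18 higher and 0 lower with replicate 2 alone), and their sum was 38.2 to 120.1 CPM in uninjured, 1604 to 3050 CPM in day 1 and 341 to 1231 CPM in day 3 libraries. Tyrobp, a signalling adaptor of myeloid cells, read 0.716, 1.29 and 0.142 CPM in uninjured cells and 32.1, 23.9, 16.5 and 8.75 CPM at day 3 (log2 4.82 ± 0.54, 5.66 without uninjured replicate 2 and 4.06 with replicate 2 alone). Lyz2, a lysozyme of the same cells, read 43.8, 15.9 and 14.5 CPM and then 520.5, 404, 215 and 156 CPM (log2 3.71 ± 0.57, 4.47 without uninjured replicate 1 and 4.43 with replicate 2 alone). Both markers were highest in day 3 replicate 1 and lowest in replicate 4. Among the uninjured libraries, the sum of the 20 markers was highest in replicate 1 (120.1 CPM, against 41.85 and 38.18 CPM in replicates 2 and 3). Of 7 neutrophil markers, 5 were tested and 2 rose, with a sum of 0 to 0.284 CPM before injury and 2.08 to 5.13 CPM at day 3, and with Ly6g and Retnlg at 0 in all day 3 libraries. In uninjured libraries S100a9, Ly6g, Csf3r, Cxcr2, Mmp8 and Retnlg were at 0. Csf3r was among the markers that rose, and its call was lost in limma voom (adjusted p = 0.062). Of 14 T, NK and B cell markers only Cd79a, a B cell receptor gene, had enough counts to be tested, and it was called lower (log2 −2.45 ± 1.06, adjusted p = 0.0439). That call was lost in DESeq2 (adjusted p = 0.095), with no low-count filter (0.0592), with replicate 2 alone (0.109), and without each of day 3 replicates 2, 3 and 4 and uninjured replicates 1 and 2 (0.0525 to 0.16). Their sum was 1.56 to 2.57 CPM in uninjured and 0.96 to 2.11 CPM in day 3 libraries, and Nkg7 and Ncr1 were among the markers at 0 in all day 3 libraries.

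Other marker lists were lower at day 3 or mixed. Of 11 endothelial markers, 10 were tested, 5 fell and 5 did not pass (0 higher and 2 lower with replicate 2 alone), with sums of 155 to 229 CPM in uninjured and 20.9 to 26 CPM in day 3 libraries, and Erg was at 0 in the uninjured libraries. Tek, an angiopoietin receptor that made up most of that sum in each uninjured library, read 141, 107 and 131 CPM and then 2.46, 4.49, 3.04 and 3.77 CPM (log2 −5.20 ± 0.21). Of 9 smooth muscle and mural markers 6 fell and 3 did not pass, with sums of 788 to 1059 and 294 to 487 CPM. Notch3, among those that fell, is also counted on the quiescence and Notch list above. Of 6 Schwann cell markers 5 were tested and fell, 3 of them without overlap of the CPM ranges, with sums of 482 to 609.8 and 45.7 to 59.6 CPM. In day 3 replicate 1, Pmp22 alone read 56.8 CPM of a sum of 59.6 CPM. For 14 fibro-adipogenic markers, 6 of the 13 tested rose and 4 fell (3 higher and 3 lower with replicate 2 alone), with sums of 3587 to 3927 and 434 to 555 CPM. Gsn, which made up most of that sum and which many cells express, read 3074, 3376 and 3373 CPM and then 306, 247, 295 and 255 CPM (log2 −3.57 ± 0.20), while Pdgfra, a defining marker, rose from 0, 0.143 and 4.12 CPM to 11.1, 8.51, 13.6 and 11.8 CPM (log2 2.96 ± 0.92, 7.02 without uninjured replicate 3 and 6.20 with replicate 2 alone). Of the 6 erythroid markers 4 were tested and 1 was called lower, Hbb-bs, whose ranges overlapped (log2 −1.89 ± 0.81, adjusted p = 0.0403). That call was lost with the replicate block (adjusted p = 0.0534), in limma voom (0.126), and without each of day 3 replicates 2, 3 and 4 and uninjured replicates 1 and 2 (0.0731 to 0.241). The erythroid sums were 1.28 to 11.9 and 1.51 to 6.67 CPM. The part of these cells in the results above was not tested.

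Markers of mature myofibers, which share genes with differentiating myoblasts, rose in 10 of 20 cases and fell in 5 (8 higher and 5 lower with replicate 2 alone), with sums of 1675 to 2180 CPM in uninjured, 292 to 722 CPM in day 1 and 3618 to 6101 CPM in day 3 libraries. Ttn, the giant spring protein of the sarcomere, read 22.8, 11.1 and 13.3 CPM and then 468, 349, 562 and 441 CPM (log2 4.85 ± 0.26), and Tnni1, the slow troponin I, 4.44, 3.14 and 3.97 CPM and then 126, 75.9, 176 and 141 CPM (log2 5.06 ± 0.45). Myh4 and Pvalb, genes of adult fast fibers, fell. Myh4, the fast myosin heavy chain, read 52.3, 43.3 and 83.9 CPM and then 7.6, 3.19, 8.96 and 2.87 CPM (log2 −3.40 ± 0.68), and Pvalb, parvalbumin, fell from 19.2, 31.1 and 23 CPM to 0.103, 0, 0.48 and 1.21 CPM (log2 −5.88 ± 0.89, −7.06 without day 3 replicate 4).

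The injury effect at ZT16 was also set against that at ZT4 over all genes. At ZT4, 5052 genes were higher and 5052 lower at day 3 (33.5% each, 67% in either direction). Of the 10369 genes called at ZT16 and the 10104 called at ZT4, 8197 were called at both with the same sign and 173 with opposite signs. The difference between the effects passed the threshold for 1026 genes in the positive direction (6.8%) and 901 in the negative (5.97%). Without uninjured ZT16 replicates 1 and 3 these counts were 330 (1.99%) and 143 (0.862%) of 16581 genes, or 2.85% in either direction. Of the oxidative phosphorylation genes, 18 of 31 rose more at ZT16 (6 without those replicates). For the 27 mitosis genes the count was 0 in edgeR, with 4 at an unadjusted p under 0.05 and 2 called by DESeq2. Of the 25 differentiation and fusion genes 2 were higher in difference and 1 lower, Chrna1 among the former (log2 1.03 ± 0.19, adjusted p = 0.00101). For Pax7 the difference was 0.19 ± 0.22 (adjusted p = 0.629) and for Myog 0.47 ± 0.65 (adjusted p = 0.698).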

How the data were processed

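RNA was measured in 22 libraries made with SMART-seq v4 from fixed ZsGreen-positive cells, per the labels' protocols. The mm10 build, the read trimmer Trimmomatic 0.33, the aligner STAR 2.5.2, the quantifier RSEM 1.3.3 and also DESeq2 are named in the submitters' processing notes. Their settings and the annotation release are not given in the sources used here. Per the file headers, the authors deposited an expected count and a TPM value for each of 103732 transcripts per library. Expected counts were summed per gene (43430 genes, 42546 matched to GENCODE M21 on GRCm38) and rounded. TPM was summed per gene and used only to compare levels between genes. Reads were counted without strand information that could separate overlapping or antisense genes, so far as the sources state, and genes with near-identical copies are uncertain.

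All 22 libraries entered 1 fit of edgeR 4.0.16 (R 4.3.3; TMM factors 0.942 to 1.094, robust quasi-likelihood, common dispersion 0.0444) with a mean per group. The low-count filter (minimum count 10, minimum total 15) kept 15084 genes and left out 28346. Contrasts were day 3 minus uninjured at ZT16, the difference of that effect from ZT4, and day 3 minus day 1 at ZT16, each adjusted by Benjamini-Hochberg with a threshold of 0.05. Errors of log2 changes are SE, the absolute change over the square root of F, and are rough at low counts. Floors (3 counts over a group) cover counting error only. Alternatives were DESeq2 1.42.0, limma 3.58.1 (voom with quality weights), RLE scaling, no low-count filter, only the libraries compared, the replicate block, each library left out, and uninjured ZT16 replicates 1 and 3 left out.

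The genes of 31 lists (21 pathway, 10 marker, 551 distinct genes) and the rule for named genes were chosen with earlier results of these data known. The rule took the 12 highest and 12 lowest log2 changes among called genes with at least 10 CPM in the higher group, ranges that did not overlap, a gene symbol and the same call without uninjured replicates 1 and 3. It also took the 3 smallest p of each list, marker genes at 0 throughout a group, and Pax7, Myf5, Myod1, Myog, Mymk, Mymx, Cdkn1a, Cdkn1c, Cdk1, Ccl2, Nampt, Arntl and Per2. Some genes that the rule allows are not named, and a few are not reported here. Genes named outside the rule, after their values were seen, are Chrng, Chrnd, Myh3, Tnnt2, Ccnb1, Plk1, Calcr, Heyl, Dll1, Mthfd2, Rrm2, Cdc6, Myc, Col1a1, Col1a2, Mmp9, Insig1, Sqle, Msmo1, Fos, Egr1, Btg2, Hspa1a, Igf1, Lyz2, Per3, Myh4, Pvalb, Ckm, Acta2, Ccnd1, Hes6, Irf1, Mcm5, Cdkn1b, Cycs, Hes1, Hey1, Hk1, Hk2, Igfbp3, Met, Notch1, Notch2, Pdgfra, Pfkm, Nid1, Postn, Col3a1, Hspa1b, Calr and Dnajb9. Figures were drawn with matplotlib 3.10.9 in Python 3.11.15.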

Additional observations from a re-analysis of the deposited data

Results flagged for a closer look

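At day 3, 12 of the 175 named genes had 1 of the 4 ZT16 libraries set apart from the others. The gap was more of the group's range than Dixon's critical value for 4 samples allows. Chance alone sets apart about 1 in 20 groups, which is close to the share seen here. In replicate 1 these were Eno1 (5120 CPM), Pmp22 (56.8 CPM) and Per3 (2.77 CPM), and in replicate 2 Tshr (0.118 CPM), Ncl (1957 CPM) and Heyl (101 CPM). In replicate 3 they were Slc22a3 (0.16 CPM) and Dll1 (119 CPM), and in replicate 4 Pax7 (29.1 CPM), Ccne1 (184 CPM), Adamts5 (8.45 CPM) and Btg2 (75.1 CPM). Tshr and Slc22a3 each had 1 count in the whole day 3 group, and a lone count is always set apart. Their flags therefore say nothing about these libraries, and the rate given for chance does not apply to them.

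For 38 named genes the injury effect at ZT16 differed from that at ZT4 in edgeR's test of the difference itself, and 18 of these passed without uninjured ZT16 replicates 1 and 3. Of those 18, the difference (log2, ZT16 effect minus ZT4 effect) was positive for Chrna1 (1.03), Uqcrq (0.81), Eno1 (0.73), Srebf2 (1.28), Fdps (2.51), Tagln (1.82), Arntl (2.19), Insig1 (1.24), Sqle (2.40), Msmo1 (2.66), Acta2 (1.08), Ccnd1 (1.12) and Calr (0.69). It was negative for Tef (−1.30), Nr1d2 (−1.49), Per3 (−1.68), Hk2 (−2.22) and Nid1 (−1.80). The 38 genes are out of 175 named genes, some of them named after their values were seen, so their number follows in part from that choice. Over all genes tested, the difference passed for 12.8% in either direction with all libraries.

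The other 20 genes did not pass without those libraries. Their differences with all libraries were positive for Pgk1 (0.46) and Pdia6 (0.54). They were negative for Gabrr2 (−3.12), Col4a1 (−0.83), Csf1 (−0.75), Fosl1 (−2.06), Dusp1 (−2.74), Jund (−2.0), Herpud1 (−0.83), Cd68 (−2.88), Tek (−1.05), Ccl2 (−2.89), Nampt (−0.79), Per2 (−2.76), Myc (−1.61), Fos (−5.32), Egr1 (−3.96), Btg2 (−4.43), Irf1 (−2.69) and Dnajb9 (−1.41).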

How the results depend on the processing

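Of 175 named genes, 169 passed the threshold for day 3 against uninjured at ZT16, and 152 of these kept their direction and call under every alternative run. Many were named for their call, their small p or their values, and some had to keep the call without uninjured replicates 1 and 3. These counts therefore follow in part from that choice. Over all genes tested, 68.7% passed. Over 2444 pairs of a gene and an alternative, 2387 kept direction and side of the threshold, 39 lost the call, 8 gained it and 10 changed sign. Without uninjured replicates 1 and 3 the log2 change of Fos was 0.47, of Egr1 0.43, of Irf1 0.51 and of Acta2 0.14, against −4.31, −4.04, −2.57 and −0.13 with all libraries. Acta2 was also positive in limma voom (0.0307) and with no low-count filter (0.0156), and leaving out 1 library gave −0.27 to 0.22. Hba-a1 and Hbb-bt, globin genes that were not called (−0.92 and −0.86) and have near-identical copies, ranged from −1.46 to 0.42 for Hba-a1 and from −2.54 to 0.15 for Hbb-bt when 1 library was left out, and Hba-a1 was positive in limma voom (1.12). Leaving out 1 library also gave Fos −4.74 to −3.70, Egr1 −4.47 to −3.44 and Irf1 −2.96 to −1.66. Over all genes it gave 4910 to 5412 genes higher and 4429 to 5087 lower. For the difference between the ZT16 and ZT4 effects it gave 766 to 1311 and 545 to 1065, the 545 without uninjured ZT16 replicate 1, and leaving out uninjured ZT16 replicates 1 and 3 gave 330 and 143. For day 3 against day 1 it gave 2537 to 2794 and 2601 to 2954. DESeq2 called 5499 genes higher and 5076 lower at day 3. RLE scaling moved the median change of all genes from −0.04 to 0.02. Low counts limit genes near 0 in a group, for which bounds replace fold changes.

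The replicate number was added as a block, although it is not known whether the numbers pair these libraries. The deviations of same-numbered uninjured and day 3 libraries correlated at 0.249, 0.0218 and 0.0654 for replicates 1, 2 and 3. Those of differently numbered libraries correlated at −0.223 to 0.19. Uninjured replicates 1 and 3 correlated best with the day 3 library of their own number, and uninjured replicate 2 with day 3 replicate 4 (0.19). These values do not settle whether the numbers pair. With the replicate block, 5054 genes were higher and 5166 lower at day 3, the difference from ZT4 was called for 1029 and 916, and day 3 against day 1 gave 2831 and 3031.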
